A study of Mus musculus with 18 samples.

Results

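Liver RNA of mice fed a Western-style diet was compared with liver RNA of mice fed a control diet, gene by gene, on Affymetrix mouse arrays. The groups were read from the sample titles, which gave 6 arrays for the Western-style diet and 6 for the control diet, or 12 of the 18 arrays of the series, each taken as 1 mouse with a doubt over control arrays 4 and 5 given below. All animals were male C57BL/6J mice with no engineered allele named in the labels, received at 5 weeks of age, kept for 1 week on a standard diet and then fed for 20 weeks. The control animals ate AIN93G, a defined rodent feed. Of its energy the Western-style diet drew 39.9% from fat and 34.0% from sucrose, and it held 20% butter, 1% soy oil and 0.15% cholesterol. The other 6 arrays came from mice given the same Western-style diet with 0.05% quercetin, a plant flavonol. They enter here through the normalization, the choice of probe sets and of genes bright enough to test, and the shared estimate of spread. Their own values are given only at the end. As a model the comparison has 1 sex, 1 strain and 1 time point, the diets differ in fat, sugar and cholesterol at once, and mice were housed 3 to a cage, with the cage of each mouse not given in the labels. RNA came from whole liver, so fewer cells of a type and less RNA per cell cannot be told apart in any value below.

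The liver stores surplus fatty acids as triglyceride in lipid droplets, whose surface proteins decide how the droplets grow and are broken down. It makes its own cholesterol from acetate through mevalonate, and the transcription factor SREBP2 keeps the genes of that route active until sterols accumulate in the cell. In a liver loaded with lipid, macrophages clear cell debris and lipid, and stellate cells can turn to making collagen. Enzymes of amino acid breakdown and secreted plasma proteins are marks of the mature hepatocyte.

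Control arrays 4 and 5 were nearly the same, with an SD of 0.06 for their log2 differences over bright probe sets where the other control pairs had 0.183 to 0.414, so their mean was used as 1 sample, named control 4-5, and n is 5 control and 6 Western samples throughout. Whether these arrays hold 1 mouse, 1 library measured again or 2 very similar mice could not be told from the labels. Deposited signals were brighter in the Western group, with trimmed means of 90.7 ± 8.46 (SD, n = 6) against 74.6 ± 5.55 (SD, n = 5; exact permutation test, two-sided p = 0.00649). The log2 ratio of the 3' to the 5' control probe sets of actin, a sign of RNA integrity and of the labelling reaction, was 0.544 ± 0.110 in the Western and 0.687 ± 0.056 in the control group (exact permutation test, two-sided p = 0.0325). For Gapdh the same ratio gave p = 0.517 in the exact permutation test. Alb, the albumin gene that marks hepatocytes, read 13.08 ± 0.10 in the control and 13.06 ± 0.07 in the Western group (SD), near the top of the scale in both groups.

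Levels are given as log2(signal + 16) after quantile normalization, differences as Western minus control with the standard error, and folds as ratios of signal + 16, which understate the change of dim genes. A gene was called changed where limma gave an adjusted p under 0.05 (Benjamini-Hochberg over all genes tested). Of 13645 genes tested, 1178 changed (8.63%), of which 747 were higher in the Western livers (5.47%) and 431 lower (3.16%). Changes of at least 2-fold were found for 74 genes upward (0.542%) and 23 downward (0.169%). All 6 Western samples lay above all 5 control samples for 566 genes (4.15%) and below them for 374 (2.74%). The median difference over all genes was −0.02, and the 95% interval of a difference had a median half-width of 0.245. Each gene was read from its brightest probe set. Of 554 changed genes with several probe sets bright enough to test, 436 (78.7%) had the same sign in all of them.

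The split between higher and lower genes depended on the scaling. Higher genes made up 63.4% of the changed genes here, 97.7% with the deposited values unscaled and 86.2% with only the array medians set equal. Unscaled values shifted the median of all genes by 0.215, and 1155 of the 1178 genes kept their sign on them. With that actin ratio as a covariate in the fit, 225 genes changed, and all 1178 kept their sign at a median of 0.901 times the reported size. Within the samples numbered 1 to 3 alone 88 genes changed and within those numbered 4 to 6 alone 297, with fewer samples in each fit. All 1178 genes kept their sign in both, at medians of 0.973 and 1.03 times the reported size. Since these samples also gave the 1178 calls, that agreement in sign is not separate evidence. Control and Western samples of the same set of numbers, 1 to 3 or 4 to 6, tended to deviate alike from their group means. The correlation of these deviations over genes had a median r of 0.134 over 15 pairs, from −0.0554 to 0.257. Across sets all 15 pairs were negative (median −0.141). Deviations from a group mean cancel within the group, so positive values within sets push those across sets to be negative. The negative values are therefore not separate evidence, and the pairs share samples. Only the same-set values bear on a difference by set, which was not tested. Without Western sample 4, control 6 or Western 5 the count was 743, 766 or 784.

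Counts of gene lists below are members that changed out of members tested, to be read against the shares of all genes given above. The 71 lists hold 1241 tested genes, of which 295 changed (23.8%), and since they were drawn up for this tissue with results of these data known, that share is a description.

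**Figure D1:**
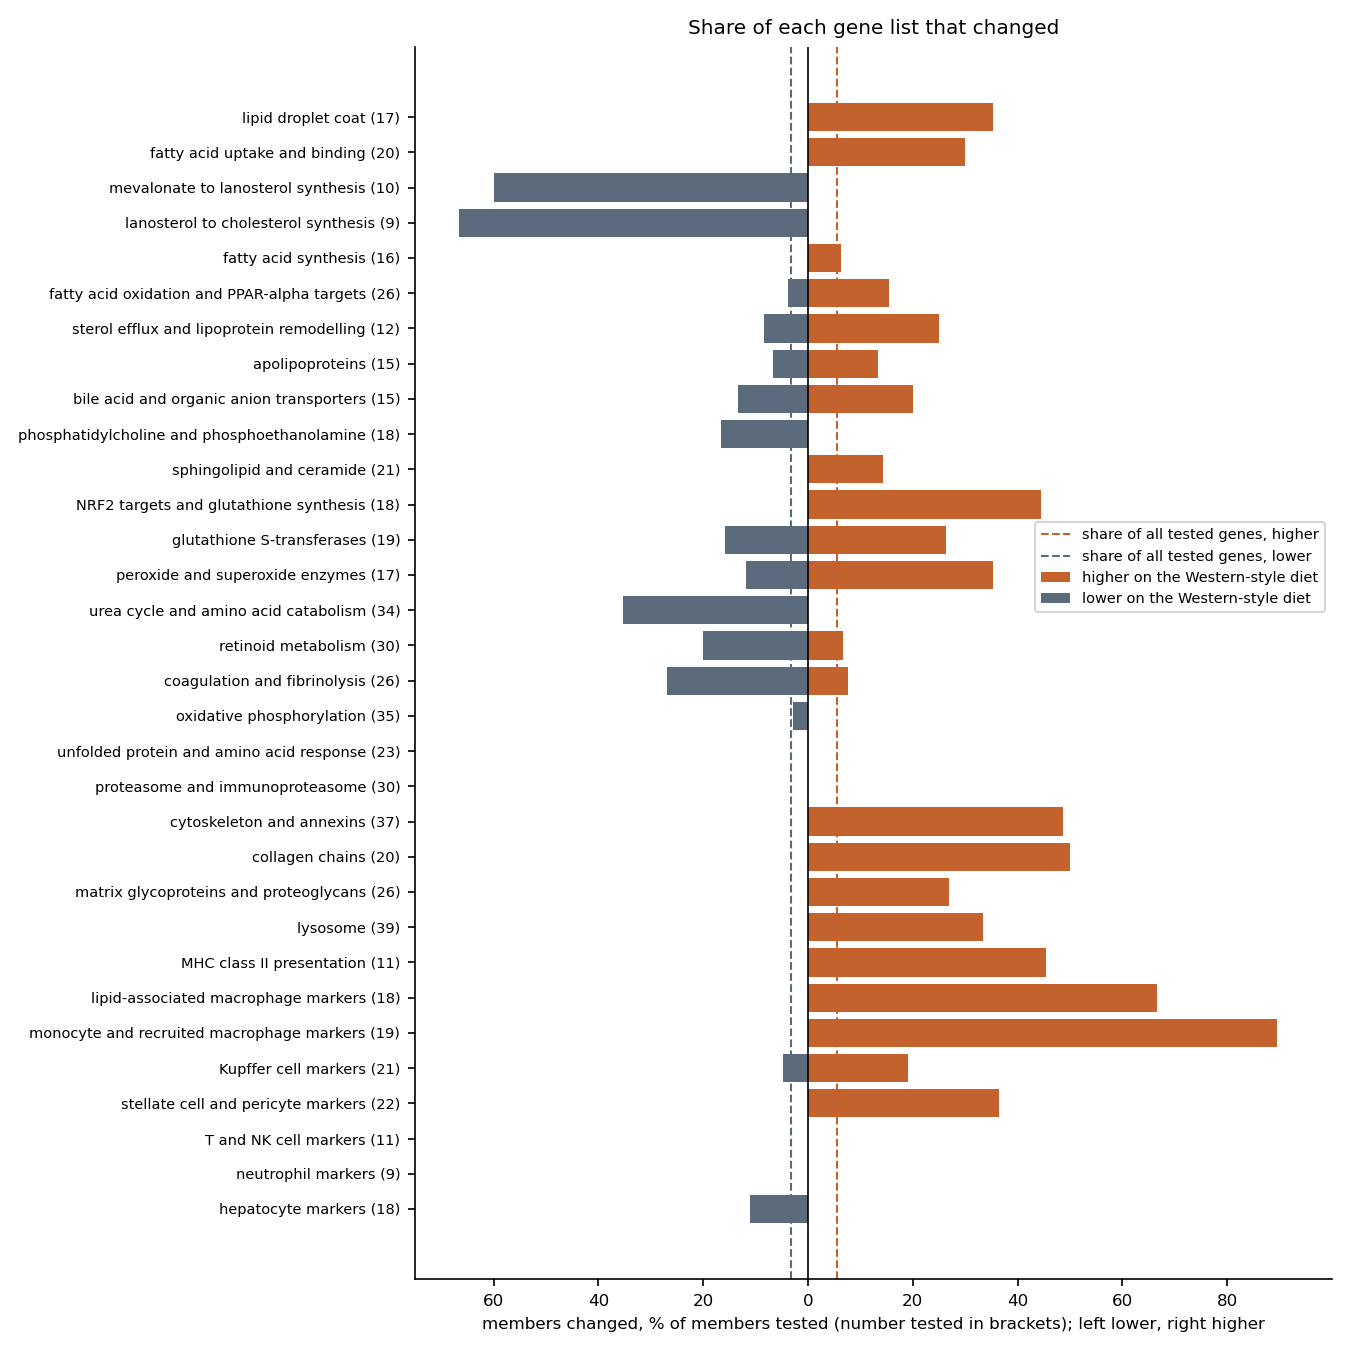
Share of the tested members of 32 gene lists that changed, in percent, with higher members to the right of the zero line and lower members to the left. The dashed lines mark the shares of all 13645 tested genes, 5.47% higher and 3.16% lower; the monocyte and lipid-associated macrophage markers extend furthest to the right and the sterol synthesis lists furthest to the left.

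Genes for the coat and growth of lipid droplets were higher on the Western-style diet. Of 17 tested, 6 rose, with a list median of 0.23 against −0.02 for all genes, and 4 rose with the actin ratio as a covariate and 10 with unscaled values. Cidea, whose protein sits at droplet contacts and helps droplets fuse into larger ones, read 5.35, 5.39, 6.26, 5.35 and 5.05 in control samples 1, 2, 3, 4-5 and 6. The Western samples read from 9.83 to 10.46 with a median of 10.14. Every Western liver was thus far above every control liver, by 4.70 ± 0.22 on average or 25.9-fold (limma adjusted p = 3.55e-10), and within the control group sample 3 stood above the rest. Cidec, the adipose member of the same family, read 5.66, 5.47, 5.23, 6.82 and 5.81 in the control samples in that order. Western samples lay between 8.50 and 9.30 with a median of 8.88. The groups did not overlap, and the difference was 3.11 ± 0.22 (adjusted p = 1.89e-07).

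Plin4, a perilipin that coats new droplets, rose 2.40-fold, with control samples from 6.27 to 7.18 and Western samples from 6.85 to 8.54. Its groups overlapped through Western sample 2 alone. Fitm1, which partitions fat into forming droplets, rose by 0.58 ± 0.11 (adjusted p = 0.00319). Plin2, the main perilipin of hepatocytes, differed by 0.34 ± 0.10, and although no Western sample fell into the control range (11.79 to 11.94 against 12.01 to 12.42), its adjusted p was 0.0491. The adjusted p was above 0.05 on leaving out each sample in turn, Western sample 2 excepted, with values from 0.0538 without Western 6 to 0.112 without Western 1. Pnpla2, the lipase that opens triglyceride breakdown, differed by 0.10 ± 0.14 (adjusted p = 0.706).

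Uptake and carrying of fatty acids showed the same direction, with 6 of 20 genes higher and a list median of 0.15. Fabp4, a fatty acid carrier known from adipocytes and macrophages, read 7.90, 7.52, 7.80, 7.35 and 7.12 in the control samples, while the Western samples spanned 8.82 to 9.78 with a median of 9.28. Western livers were all higher, 3.33-fold on average (1.74 ± 0.24; adjusted p = 0.000349), and 4 of 4 probe sets of the gene moved the same way. Further carriers also rose, Fabp7, the brain form, by 1.24 ± 0.22 and Fabp2, the intestinal form, by 0.49 ± 0.09. Cd36, the fatty acid translocase of the cell surface, rose 1.77-fold from 9.39 ± 0.47 to 10.22 ± 0.19 (SD), and Lpl, the lipase that frees fatty acids from circulating lipoproteins, rose 3.81-fold. Acsl4, which activates long polyunsaturated acids, rose 1.55-fold with overlapping groups. Macrophages express several of these genes, their markers rose in the same livers (12 of 18 markers of lipid-associated macrophages, with Lpl and Cd36 among the 18), and their part in these rises was not tested.

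Among 33 nuclear receptor genes, Pparg, the receptor that drives fat storage genes in adipocytes, was the member that rose, and 1 member fell. Without Western sample 2 the counts were 2 and 2, and with unscaled values 6 rose and none fell. Control samples read 5.88, 6.37, 6.12, 6.46 and 6.08, and Western samples 6.91 to 7.46 with a median of 7.23. All Western samples were higher (2.06-fold; adjusted p = 0.000764). Nr5a2, a receptor that supports bile acid and sterol genes, fell by 0.57 ± 0.13 (adjusted p = 0.0130). Ppara, the receptor for fatty acid oxidation genes, differed by 0.16 ± 0.21 (adjusted p = 0.716).

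Of 23 genes for making and splitting triglyceride, 4 rose and 1 fell, and the list median was 0.02. The counts were 2 and 1 without Western sample 5 and 1 and 1 with the actin covariate, and with unscaled values 6 rose and none fell. Mogat1, which acylates monoacylglycerol, read 6.71, 6.11, 6.22, 6.23 and 6.25 in the control samples and 7.09 to 7.68, with a median of 7.29, in the Western samples. It was higher in 6 of 6 Western samples than in any control (1.04 ± 0.12; adjusted p = 9.15e-05). Lipa, the acid lipase of lysosomes, rose 1.32-fold. Tm6sf2, a membrane protein needed to load lipid onto secreted lipoproteins, was 1.41-fold lower (adjusted p = 0.0164). Dgat2, an enzyme of the last acylation step, differed by −0.21 ± 0.09 and did not pass.

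**Figure D2:**
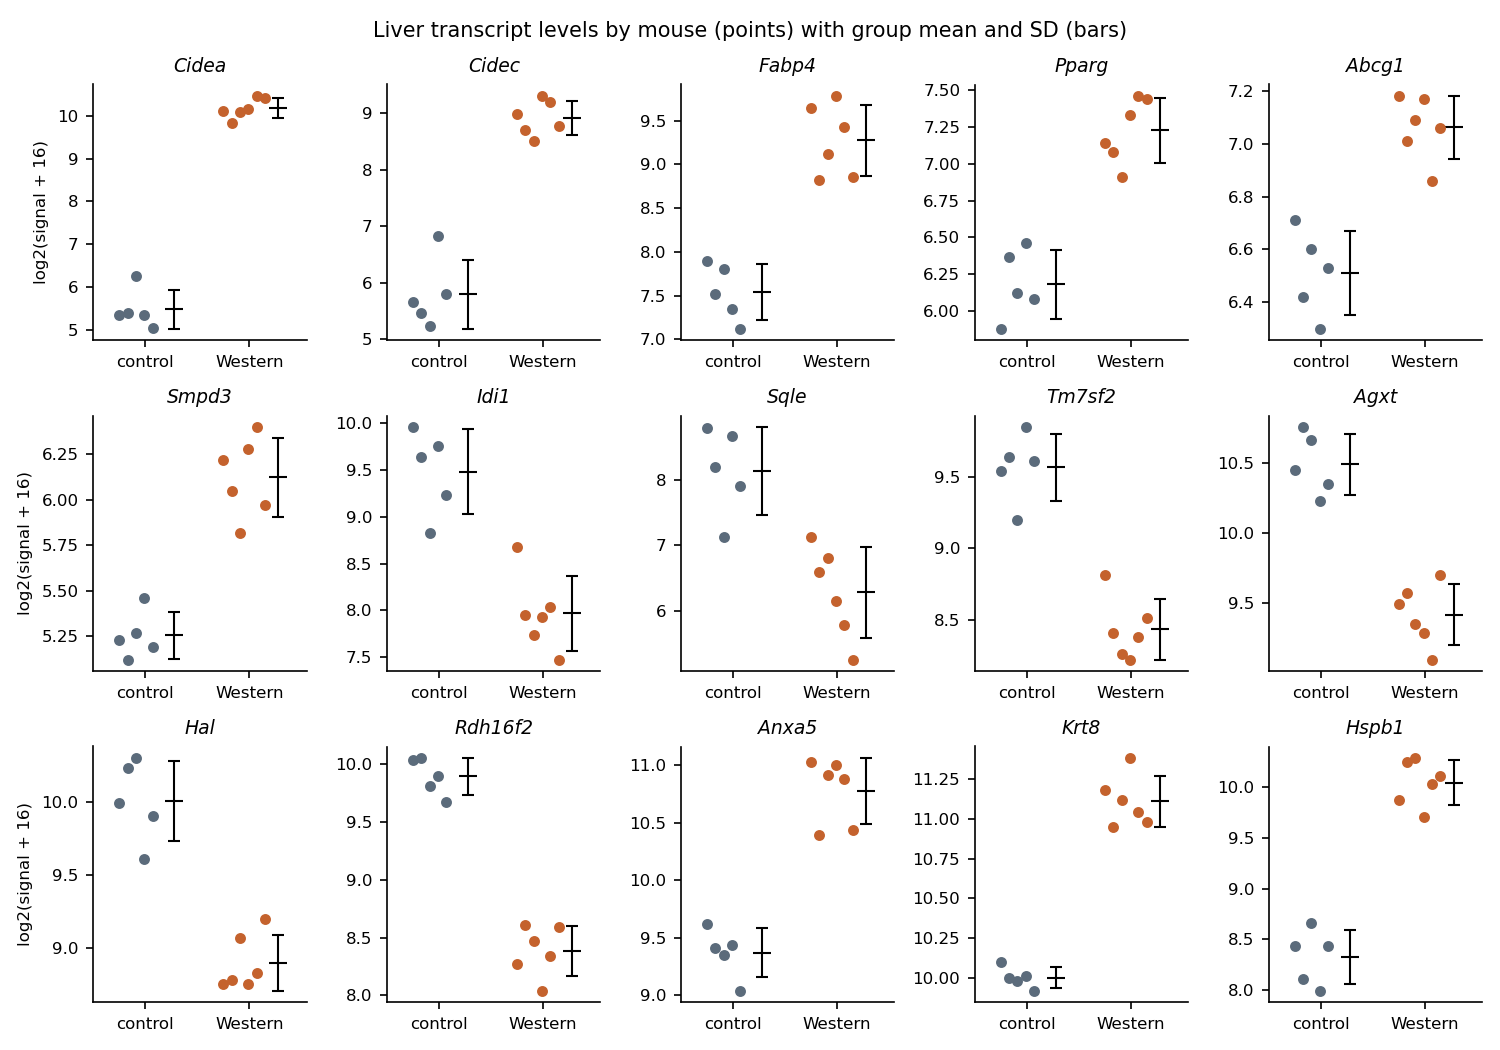
Levels of 15 genes in each mouse, on the log2(signal + 16) scale, for 5 control samples (blue-grey) and 6 Western samples (orange), with the mean and SD of each group as black bars beside the points. In 14 of the 15 panels the groups do not overlap; in the Sqle panel they meet at 7.12.

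Sterol synthesis moved the other way. In the steps from acetate to lanosterol 6 of 10 genes fell, with a list median of −0.65, and from lanosterol to cholesterol 6 of 9 fell, with a list median of −0.55. All 19 genes had negative differences. With unscaled values 2 and 4 fell, with medians centred 5 and 5, and with the actin covariate 2 and 4. In that last limma fit 9 of 10 and 8 of 9 were lower at an unadjusted p under 0.05, with list medians of −0.671 and −0.62. Idi1, the isomerase that makes the activated isoprene unit, read 9.96, 9.64, 8.83, 9.76 and 9.23 in the control samples. In the Western samples it read 7.47 to 8.68 with a median of 7.94. The ranges did not overlap, and the gene was 2.86-fold lower (−1.52 ± 0.23; adjusted p = 0.000647). Sqle, the squalene epoxidase, read 8.78, 8.19, 7.12, 8.66 and 7.91 against 5.26 to 7.12 with a median of 6.38. Control sample 3 met the highest Western sample, and the difference was −1.84 ± 0.34 (adjusted p = 0.00256).

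Earlier and later enzymes followed. Fdft1, squalene synthase, was 1.62-fold lower and Lss, which closes the sterol rings, 1.57-fold lower, both with overlapping groups. Tm7sf2, a sterol reductase, read 9.54, 9.64, 9.20, 9.85 and 9.61 in the control samples and 8.22 to 8.81 (median 8.40) in the Western samples. Its groups were clearly apart, with a 2.20-fold difference (adjusted p = 3.21e-05). Cyp51, the lanosterol demethylase, fell 2.10-fold, Msmo1, which removes the next methyl groups, 2.34-fold and Nsdhl, the dehydrogenase of that step, 1.95-fold, all without overlap. Ebp, the sterol isomerase, fell by 0.35 ± 0.08 and Hsd17b7, the ketosteroid reductase, by 0.52 ± 0.13. Hmgcs1, the synthase before mevalonate, and Dhcr7, the last reductase, were lower by 0.57 ± 0.22 and 0.55 ± 0.20 and did not pass (adjusted p = 0.127 and 0.0897).

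Mevalonate list levels separated the mice within each group as well. Relative to the control mean, control samples ran from −0.36 in sample 3 to 0.44 in sample 1, and Western samples from −1.24 in sample 6 to −0.44 in sample 1. No Western sample reached the lowest control sample. In the SREBP2 list 2 of 12 genes fell, Scap, the sterol-sensing escort of SREBP, by 0.55 ± 0.09 and Stard4, a cholesterol carrier, by 0.68 ± 0.12. With unscaled values the balance turned, with 5 of the 12 higher and 1 lower. Srebf2 itself differed by −0.25 ± 0.12 and Insig1, which retains the complex in the endoplasmic reticulum, by −0.24 ± 0.14, and neither passed.

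Start-site sequences of the sterol genes shared a short element. In the 250 bases before the start, taken from RefSeq on GRCm38.p6, the letters CCAAT on either strand (the core of NF-Y sites, which often accompany SREBP sites) were present in 16 of 16 sterol genes that had an entry, 9 of 9 of those that fell, and in 39.8% of 10979 tested genes. A sterol element searched as TCACNCCAC, both strands, was in 1 of the 16, in 0 of the 9 that fell, and in 1.28% of all. Each is a match of letters and not a site of binding. The stretches of 4 genes that fell without overlap are shown 5′ to 3′ on the gene's strand, with CCAAT or its complement ATTGG in capitals: Idi1 at chr13:8885356-8885605 (plus strand), Tm7sf2 at chr19:6067851-6068100 (minus), Cyp51 at chr5:4104698-4104947 (minus) and Nsdhl at chrX:72918271-72918520 (plus).
Idi1: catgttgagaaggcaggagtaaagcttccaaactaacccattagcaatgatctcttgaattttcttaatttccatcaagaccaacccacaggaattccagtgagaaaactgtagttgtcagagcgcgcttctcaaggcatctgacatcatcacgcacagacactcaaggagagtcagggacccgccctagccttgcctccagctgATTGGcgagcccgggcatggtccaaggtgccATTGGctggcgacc
Tm7sf2: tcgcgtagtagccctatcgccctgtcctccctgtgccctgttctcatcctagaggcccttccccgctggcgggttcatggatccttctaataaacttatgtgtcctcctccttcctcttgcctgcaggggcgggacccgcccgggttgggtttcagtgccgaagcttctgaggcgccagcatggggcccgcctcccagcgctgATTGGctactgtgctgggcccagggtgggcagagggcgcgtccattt
Cyp51: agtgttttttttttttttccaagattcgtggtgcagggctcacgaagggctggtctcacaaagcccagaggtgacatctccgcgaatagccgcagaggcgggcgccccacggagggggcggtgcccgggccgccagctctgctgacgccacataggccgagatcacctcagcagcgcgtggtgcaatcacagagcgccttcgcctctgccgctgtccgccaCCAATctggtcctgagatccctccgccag
Nsdhl: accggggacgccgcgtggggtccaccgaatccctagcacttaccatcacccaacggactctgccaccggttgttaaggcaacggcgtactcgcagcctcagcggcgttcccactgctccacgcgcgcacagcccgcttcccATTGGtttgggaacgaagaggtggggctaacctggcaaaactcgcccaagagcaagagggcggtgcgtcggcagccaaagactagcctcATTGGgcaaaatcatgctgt
In Tm7sf2 the element began 47 bases before the start and in Cyp51 29 bases before it, and Idi1 and Nsdhl each held 2 copies.

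Of 16 genes for fatty acid synthesis 1 passed, Srebf1, the SREBP gene that drives lipogenesis, which rose by 0.67 ± 0.17 (adjusted p = 0.0204) and lost the call without control sample 1 (0.0545) or control 6 (0.0501). Without Western 6 the list had 2 higher members, without Western 2 it had 1 higher and 1 lower, and with unscaled values it had 4 higher. With the actin covariate none passed in limma, and 1 higher and 2 lower had an unadjusted p under 0.05. Fasn, the fatty acid synthase, spread widely among the control samples (11.93, 11.67, 11.79, 10.92 and 10.10). Its Western samples, 10.82 to 12.29 with a median of 11.56, overlapped the control range and lay higher at both ends. In both groups every sample numbered 1 to 3 read above every sample numbered 4 to 6. Between the diets Fasn differed by 0.30 ± 0.30. Acaca, which makes malonyl-CoA, differed by 0.39 ± 0.18 and did not pass. Scd1, the main hepatic desaturase, was near the top of the scale in every sample (13.01 to 13.20), where differences are compressed. Scd2, the form of brain and fetal tissues, read 5.88, 6.00, 5.76, 6.26 and 5.55 in the control and 7.03 to 8.29 in the Western samples. It was higher in every Western sample, 2.97-fold on average (adjusted p = 0.00282). Of 16 desaturase and elongase genes 2 rose, Scd2 among them, and 1 without control 1, 2, 3 or 6 or Western 1, 4 or 5. None of the 16 passed in limma with the actin covariate, where 3 higher and 1 lower had an unadjusted p under 0.05. On unscaled values 7 of them rose. Elovl3, an elongase, was 2.07-fold lower with overlapping groups and did not pass (limma adjusted p = 0.0758), though it passed under 4 of 26 alternatives. Among samples numbered 1 to 3 it read 10.97 to 11.61 in the control and 9.45 to 10.93 in the Western group. Among those numbered 4 to 6 it read 9.99 and 10.0 in the control and 9.04 to 9.33 in the Western group.

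In the oxidation list 4 of 26 genes rose and 1 fell, and the count was 2 and 1 without control sample 3 and 3 with no lower gene without Western 3, 4 or 5. Under the actin covariate no gene of the list passed in limma, and 5 higher and 1 lower had an unadjusted p under 0.05, while with unscaled values 10 rose and none fell. Ehhadh and Acaa1b, enzymes of peroxisomal oxidation, rose by 0.39 ± 0.09 and 0.27 ± 0.06. Cpt1a, the gate of mitochondrial entry, differed by 0.30 ± 0.19 and Acadm, the medium-chain dehydrogenase, by 0.10 ± 0.07, and neither passed. Acot9, a mitochondrial thioesterase, was 2.07-fold higher without overlap (adjusted p = 0.00239). It was the 1 of 12 thioesterase genes that passed. With unscaled values 5 of the 12 rose. None passed in limma with the actin covariate, where 3 had an unadjusted p under 0.05, all higher. Of 35 respiratory chain genes 1 passed, lower by a small amount, and 9 had an unadjusted p under 0.05 in limma, all lower. No gene of that list passed without control 1, 3 or 6 or Western 2, 4 or 5, and 2 did without Western 3.

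Of 12 genes for sterol export and lipoprotein remodelling 3 rose and 1 fell, with a list median of 0.22. With the actin covariate 1 rose and none fell, and with unscaled values 6 rose and 1 fell. Abcg1, a transporter that loads cholesterol onto lipoproteins and a target of the sterol receptor LXR, read 6.71, 6.42, 6.60, 6.30 and 6.53 in the control samples and 6.86 to 7.18 (median 7.08) in the Western samples. The groups were close but separate (1.46-fold; adjusted p = 0.00302). Abca1, which lipidates apolipoprotein A-I, rose 1.29-fold (adjusted p = 0.00500) without overlap, and Abcg5, the sterol transporter toward bile, rose by 0.52 ± 0.14 (adjusted p = 0.0286). Abcg5 lost its call without any of control 1, 2 and 3 and Western 3, 4 and 6, with adjusted p up to 0.0747. Cyp46a1, a cholesterol hydroxylase, fell 1.90-fold.

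Among apolipoproteins 2 of 15 rose and 1 fell, against 1 and 1 with the actin covariate. Apoa4, secreted with triglyceride-rich particles, rose 1.94-fold from 11.37 ± 0.29 to 12.33 ± 0.16 (SD; adjusted p = 0.000275), and Apoc2, the cofactor of lipoprotein lipase, 1.37-fold. Apom, the carrier of sphingosine phosphate, read 10.65, 10.82, 10.71, 10.61 and 10.88 in the control and 9.87 to 10.30 in the Western samples. Its Western values were all lower (1.59-fold; adjusted p = 0.000362).

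Of 19 bile acid synthesis genes 1 passed, Klb, the co-receptor for the gut hormone that restrains this route, which was 1.49-fold lower (−0.57 ± 0.09; adjusted p = 0.00103). Without control 4-5 the list had 2 lower members, and Klb did not pass with unscaled values. Cyp7a1, the rate-limiting enzyme, read 7.54, 7.06 and 7.44 in control samples 1 to 3 and 9.93 and 10.22 in control 4-5 and 6. Western samples spanned 7.77 to 9.94. Those numbered 1 to 3 read 7.77, 8.66 and 8.30, all above control samples 1 to 3, and those numbered 4 to 6 read 9.94, 9.83 and 9.19. With so wide a spread its difference was 0.51 ± 0.59, a 95% interval from −0.72 to 1.75, and within samples 4 to 6 alone it was −0.42. Nr0b2, the repressor SHP, differed by −0.54 ± 0.22 and did not pass.

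Transporters at the blood and bile faces of hepatocytes divided. Slc10a1, the uptake carrier for bile salts, was 1.56-fold lower without overlap (control samples 11.88 to 12.17, Western samples 11.02 to 11.54; adjusted p = 0.00745). Abcc3 and Abcc4, export pumps toward blood, were 1.47-fold and 1.59-fold higher, and Abcb4, the phospholipid pump of the bile canaliculus, 1.36-fold higher, each without overlap. Over the list, 3 of 15 rose and 2 fell, against 1 and none with the actin covariate and 5 and 2 with unscaled values. Slc22a7, an organic anion carrier at the blood face, read 8.01, 8.27, 9.12, 8.15 and 9.43 in the control and 6.22 to 8.19 in the Western samples. It was 2.69-fold lower with overlap through Western sample 6 (adjusted p = 0.0204), and the call was lost without control 3, control 6 or Western 4.

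Membrane lipid genes changed in a few places. Of 18 genes of phosphatidylcholine and phosphoethanolamine 3 fell, Etnppl, which breaks down phosphoethanolamine, by 2.66-fold, Gnmt, which uses up methyl groups from S-adenosylmethionine, by 1.30-fold and Pemt, which methylates phosphatidylethanolamine, by 1.23-fold. Pemt lost its call without control sample 2 (adjusted p = 0.0508), control 6 (0.0825), Western 1 (0.0611) or Western 4 (0.0700). With unscaled values the list had 6 higher and 2 lower members. Of 21 sphingolipid genes 3 rose, 7 with unscaled values and 2 with the actin covariate. Smpd3, a neutral sphingomyelinase that yields ceramide, read 5.23, 5.12, 5.27, 5.46 and 5.19 in the control and 5.82 to 6.40 (median 6.13) in the Western samples. The groups stood apart (1.82-fold; adjusted p = 9.60e-05), and 3 of 3 probe sets agreed. Sptlc2, a subunit of the enzyme that starts sphingolipid synthesis, rose 1.59-fold, also without overlap.

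Genes that answer to the stress factor NRF2, or make glutathione, rose in 8 of 18 cases with a list median of 0.42. The count was 16 with unscaled values, 11 with medians centred and 2 with the actin covariate. In that last limma fit 7 were higher at an unadjusted p under 0.05. Cbr3, a carbonyl reductase, read 5.10, 4.85, 4.95, 4.83 and 5.40 in the control samples and 6.58 to 8.07 (median 6.98) in the Western samples. Its rise was 4.41-fold without overlap (adjusted p = 0.000527), and its neighbour in function, Cbr1, rose 1.91-fold. Ephx1, the microsomal epoxide hydrolase, had narrow groups, 10.64 to 10.91 against 11.36 to 11.53 (0.68 ± 0.07; adjusted p = 2.47e-05). Gss, glutathione synthetase, rose 1.45-fold. Several classic targets did not pass, namely Nqo1 (0.23 ± 0.12), Hmox1 (0.56 ± 0.24), Gclc (0.11 ± 0.20) and Gclm (0.10 ± 0.10). The antioxidant element searched as TGACNNNGC on both strands was in the 250 bases before the start of 6 of 15 genes of the list with an entry, 3 of 8 that rose, and in 13.6% of all. Abcc4 was among those 3, whereas Cbr3, Cbr1, Ephx1 and Gss held no match.

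Glutathione S-transferases, which attach glutathione to reactive compounds, moved in both directions, and their probe sets may share signal between near-identical copies. Of 19 tested, 5 rose and 3 fell, and the list median was 0.00. Gstm3 read 9.18, 9.10, 8.98, 8.90 and 7.98 in the control and 10.09 to 11.42 (median 10.92) in the Western samples. It was 4.15-fold higher with no overlap, and control sample 6 stood below the other controls. Gstm1 rose 1.49-fold and Gsta2 1.68-fold. In the opposite direction Gstm6 was 1.63-fold lower (8.84 to 9.64 in the control against 8.48 to 8.79 in the Western samples) and Gstt3 1.79-fold lower. Gstm2 (0.67 ± 0.17) passed except without control 6 (adjusted p = 0.0568) and Gstm7 (−0.44 ± 0.11) except without control 3 (0.0520). Gsta4 (0.49 ± 0.13) did not pass without any of 7 samples, control 1, 4-5 and 6 and Western 1, 3, 4 and 5, at adjusted p from 0.0559 to 0.0691. With unscaled values 8 rose and 1 fell, and with the actin covariate 1 and 1.

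Peroxide and superoxide enzymes rose in 6 of 17 cases and fell in 2. Gpx4, which reduces lipid peroxides in membranes, read 11.27, 11.23, 11.15, 11.39 and 11.40 in the control and 11.67 to 11.90 in the Western samples. Every Western sample was higher (1.44-fold; adjusted p = 0.00224). Gpx3, the secreted form, rose 1.51-fold, Gpx7, an endoplasmic reticulum form, 1.56-fold and Sod3, the extracellular superoxide dismutase, 1.55-fold, all without overlap. Gpx6, a form known from olfactory tissue, was 2.23-fold lower (5.79 to 6.84 against 4.81 to 5.27; adjusted p = 0.000590). Subunits of the superoxide-producing NADPH oxidase rose, Cybb 1.93-fold and Cyba 1.89-fold, 2 of 7 in that list. When the actin ratio entered the fit 1 peroxide gene rose and 1 fell. None of the 7 oxidase genes passed in that limma fit, and 2 had an unadjusted p under 0.05, both higher. With unscaled values 5 of the 7 rose.

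**Figure D3:**
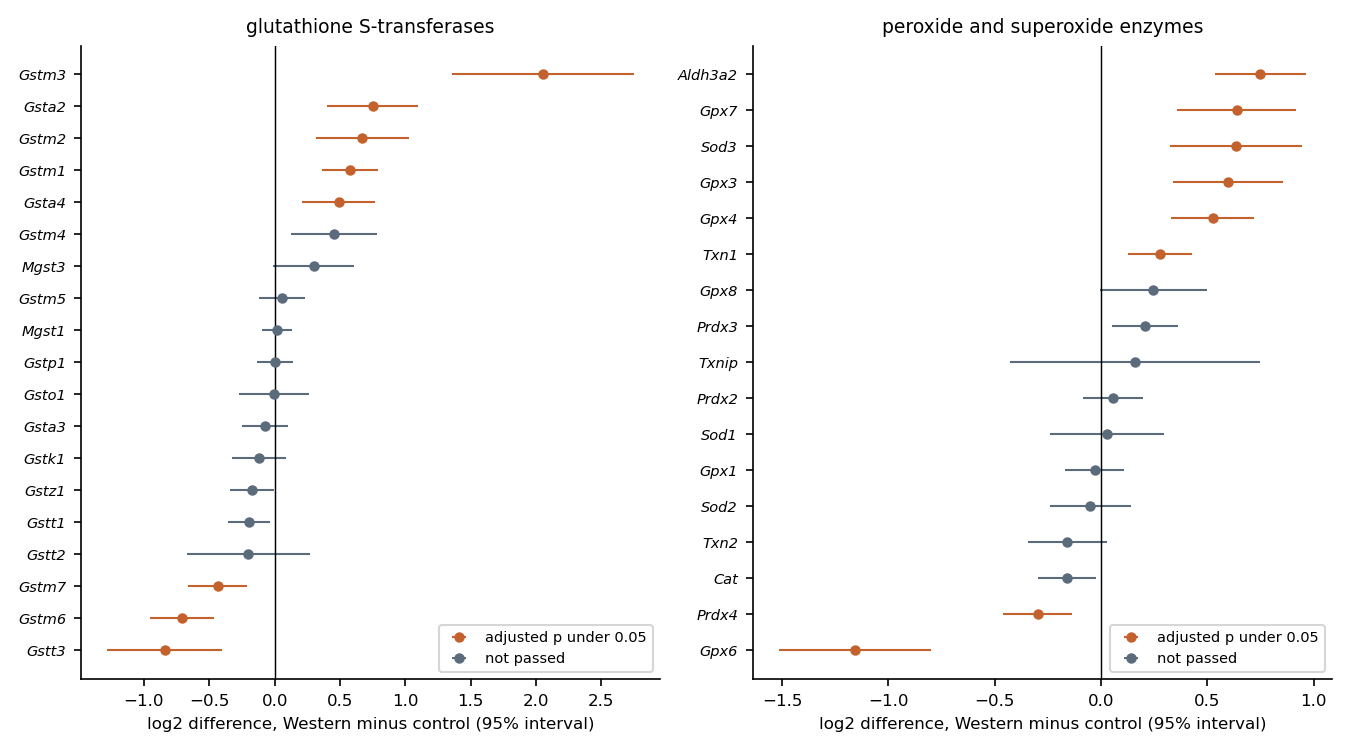
Log2 difference, Western minus control, with its 95% interval for the 19 tested glutathione S-transferase genes (left) and the 17 tested peroxide and superoxide genes (right); orange points passed an adjusted p of 0.05 and blue-grey points did not. Gstm3 lies furthest right at 2.05 and Gpx6 furthest left of its panel at −1.16.

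Enzymes of amino acid breakdown and the urea cycle fell together. Of 34 tested 12 fell, 31 had negative differences, and the list median was −0.30. The count was 5 lower and 2 higher with unscaled values, 9 lower with medians centred, and 4 lower and 1 higher with the actin covariate. In that last limma fit 15 were lower and 1 higher at an unadjusted p under 0.05. Agxt, which turns glyoxylate into glycine, read 10.45, 10.76, 10.67, 10.23 and 10.35 in the control samples and 9.09 to 9.70 (median 9.42) in the Western samples. The ranges were well apart (−1.08 ± 0.11; 2.11-fold lower; adjusted p = 3.08e-05). Hal, which starts histidine breakdown, read 9.99, 10.23, 10.30, 9.61 and 9.90 against 8.75 to 9.20 with a median of 8.80. It was 2.16-fold lower, and no sample overlapped (adjusted p = 0.000157).

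Got1, the cytosolic aspartate aminotransferase, was 1.89-fold lower, Cth, which makes cysteine from cystathionine, 1.55-fold lower and Haao, an enzyme of tryptophan breakdown, 1.26-fold lower. In the urea cycle Ass1, argininosuccinate synthase, fell 1.66-fold and Arg1, arginase, 1.27-fold, the latter from 12.57 ± 0.08 to 12.23 ± 0.03 (SD). The Ass1 value rests on 1 probe set with a control mean of 7.96, and probe sets with several gene symbols were not used. Cps1, the entry enzyme, was lower in 6 of 6 Western samples than in any control but missed the threshold (−0.27 ± 0.08; adjusted p = 0.0536), which it passed under 8 of 26 alternatives. Glul, glutamine synthetase of the cells around the central vein, differed in the other direction by 0.36 ± 0.11 and also missed it (adjusted p = 0.0510), passing under 11 of 26. Beside these falls, 2 of 18 general hepatocyte markers fell, a count of 0 without control 2, control 3, Western 1 or Western 4 and of 1 without control 6, Western 3 or Western 5. With the actin covariate none of them passed in limma, with 4 lower at an unadjusted p under 0.05, and with unscaled values 2 rose and 1 fell. As a mean over the 18 markers the Western samples ran from −0.14 to −0.05 and the control samples from −0.06 to 0.03. The part of hepatocyte content in the falls was not tested.

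Hepatocytes differ with their position in the lobule. Of 15 periportal genes 5 fell, Hal, Ass1 and Arg1 among them, while Cyp2f2, a periportal cytochrome, differed by −0.05 ± 0.07. In the fit with the actin covariate 1 periportal gene fell and with unscaled values 2. The overlap of this list with the amino acid list means the counts are not separate. Of 22 pericentral genes 2 fell, among them Cyp1a2, which oxidises caffeine and aromatic amines, by 1.80-fold with overlapping groups. That count was 1 without control 6, Western 1 or Western 4, and 4 lower with 1 higher without control 1. With unscaled values 3 pericentral genes rose and 1 fell, and with the actin covariate 1 rose and none fell.

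**Figure D4:**
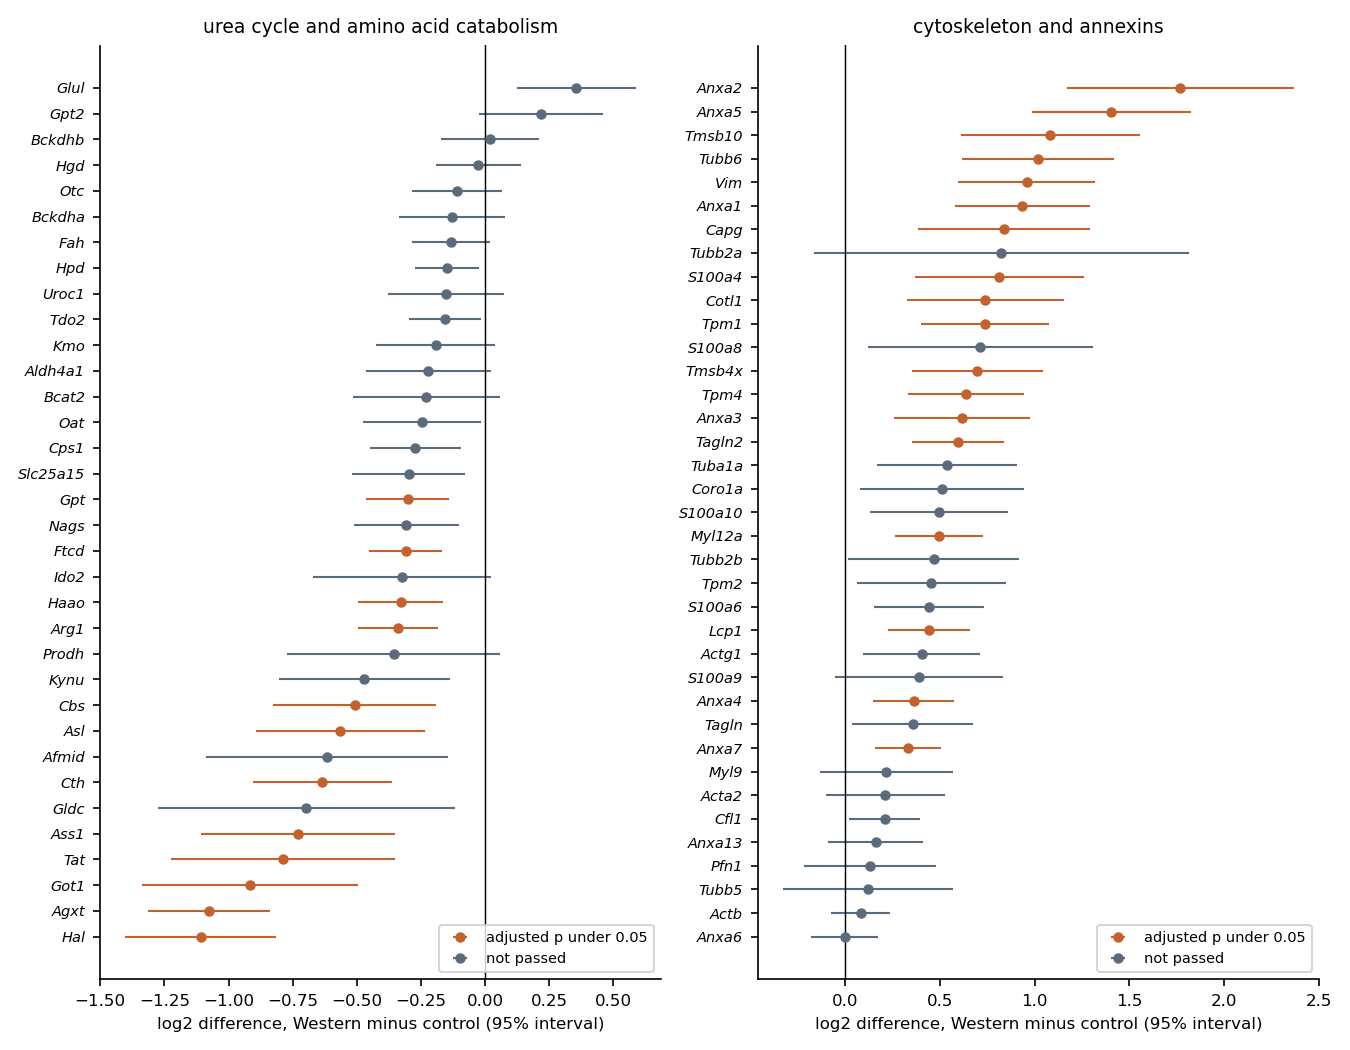
Log2 difference, Western minus control, with its 95% interval for 34 amino acid and urea cycle genes (left) and 37 cytoskeleton and annexin genes (right); orange points passed an adjusted p of 0.05 and blue-grey points did not. On the left 31 of 34 points lie below 0, down to Hal at −1.11, and on the right 36 of 37 lie above 0, up to Anxa2 at 1.77.

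Retinoid genes fell more often than they rose, 6 against 2 of 30, although with unscaled values 7 rose and 4 fell, and with the actin covariate 1 rose and 3 fell. Rdh16f2, a retinol and steroid dehydrogenase of a family of close copies, read 10.03, 10.05, 9.81, 9.90 and 9.67 in the control and 8.04 to 8.61 (median 8.41) in the Western samples. More than 1 log2 unit separated the groups (−1.50 ± 0.15; adjusted p = 1.43e-05). Rdh11 was 2.04-fold lower, Rdh5 1.54-fold lower and Adh4, an alcohol dehydrogenase that also uses retinol, 1.51-fold lower. Bco2, which cleaves carotenoids, was 1.41-fold lower. Rarres1, named for its response to retinoids, rose 1.69-fold. Lrat, which esterifies retinol for storage in stellate cells, differed by 0.44 ± 0.15 and did not pass.

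Secreted clotting proteins were lower in 7 of 26 cases and higher in 2, with 2 lower and 5 higher on unscaled values and 3 lower and none higher with the actin covariate. F11, factor XI, read 8.77, 8.84, 8.74, 9.07 and 9.10 in the control and 7.80 to 8.34 (median 7.89) in the Western samples. It fell 1.88-fold without overlap (adjusted p = 0.000590). F7 was 1.48-fold lower, F10 1.28-fold lower, Klkb1, prekallikrein, 1.34-fold lower and Serpind1, heparin cofactor II, 1.33-fold lower. Pros1, the anticoagulant protein S, rose 1.30-fold. Of 20 complement genes 3 rose and 3 fell, with a list median of 0.02, and 1 and 2 without control 3, control 6, Western 1 or Western 5. None of them passed in limma with the actin covariate, where 2 higher and 4 lower had an unadjusted p under 0.05. With unscaled values 10 rose and 1 fell. Among those that fell, C8b, a chain of the terminal complement complex, was 1.93-fold lower with overlap through Western sample 6.

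Acute phase genes rose in 7 of 23 cases, and in 2 with the actin covariate. Lcn2, lipocalin 2, a binder of bacterial iron carriers, read 8.72, 7.39, 7.25, 7.90 and 6.82 in the control and 9.14 to 11.41 in the Western samples. It was 5.12-fold higher without overlap (adjusted p = 0.000792). Orm3 read 5.91, 5.29, 5.65, 5.28 and 5.24 in the control and 6.77 to 8.27 (median 7.03) in the Western samples. It was 3.38-fold higher in non-overlapping groups, and Orm2, a close copy whose probe sets may share signal, rose 2.92-fold. For these 3 genes Western sample 3 was the highest. Steap4, a metalloreductase, rose 1.43-fold. Hp, haptoglobin, differed by 0.10 ± 0.07 and did not pass. Slc39a4, a zinc importer, was 2.77-fold higher (6.58 to 7.42 against 8.02 to 8.65; adjusted p = 7.52e-05). Of the hepcidin pair, Hamp2 was 3.47-fold lower, while Hamp, the active iron hormone, had Western samples from 10.57 to 12.84, extending below a control range of 12.20 to 12.87, and did not pass (adjusted p = 0.269).

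Structural genes of the cell rose widely. In the cytoskeleton and annexin list 18 of 37 rose, 36 had positive differences, and the median was 0.50. With the actin covariate 2 rose, while 21 were higher at an unadjusted p under 0.05 in that limma fit, and with unscaled values 30 rose. Anxa5, a phospholipid-binding annexin, read 9.62, 9.41, 9.35, 9.44 and 9.04 in the control and 10.39 to 11.03 (median 10.90) in the Western samples. All Western samples were higher (2.65-fold; adjusted p = 0.000452). Anxa2 rose 3.41-fold, Vim, the filament of mesenchymal cells, 1.94-fold and Tagln2, an actin-bundling protein, 1.51-fold, each with no overlap. Lgals1, galectin-1, had groups of 9.56 to 9.99 and 10.71 to 11.10 (adjusted p = 1.58e-05). Actb itself differed by 0.08 ± 0.07 and did not pass.

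Keratin genes also rose, and which cells gave the rise was not tested. Krt8 read 10.10, 10.00, 9.98, 10.01 and 9.92 in the control, a narrow span, and 10.95 to 11.38 (median 11.08) in the Western samples. The rise was 2.15-fold (adjusted p = 0.000157), and its partner Krt18 rose 1.82-fold. Krt7 and Krt19, which mark bile duct cells, were near the dim limit of 4.56 and differed by 0.34 ± 0.19 and 0.26 ± 0.17, and Sox9 by 0.27 ± 0.13, none of which passed. Of 14 bile duct and ductular markers tested 3 rose, Krt8 and Krt18 among them, with a list median of 0.26. The count was 1 with the actin covariate and 5 of 13 with unscaled values. As a mean over these markers Western samples ran from 0.15 to 0.49 and control samples from −0.12 to 0.11. Hspb1, a small heat shock protein that protects filaments, read 8.43, 8.11, 8.66, 7.99 and 8.43 against 9.71 to 10.29 (median 10.07). It rose 3.30-fold with wide separation (adjusted p = 3.49e-05). Of 20 heat shock genes 2 rose in all, 7 with unscaled values, and 1 with the actin covariate or without control 2, 4-5 or 6 or Western 3 or 5.

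Collagen chains rose in 10 of 20 cases with a list median of 0.46, and in 5 with the actin covariate. In that covariate fit 10 were higher and 1 lower at an unadjusted p under 0.05 in limma. Col1a1, a chain of type I fibrils, read 4.78, 5.35, 5.07, 5.34 and 4.63 in the control and 6.05 to 7.18 (median 6.95) in the Western samples. It rose 3.45-fold and its partner Col1a2 2.07-fold, without overlap in either. Col3a1, of the fine fibrils that accompany them, read 7.98, 8.05, 8.12, 7.80 and 7.19 against 9.07 to 10.14. The rise was 3.63-fold (adjusted p = 0.000277), with Western sample 2 the lowest of its group in all 3 genes. The macrophage and stellate cell markers described next moved with the collagen genes, and their part in this rise was not tested. Col4a1 of the basement membrane rose 1.75-fold and Col6a3 of the microfibrils 1.79-fold.

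Of 26 other matrix genes 7 rose, with a median of 0.36, against 2 with the actin covariate and 17 with unscaled values. Nid1, which links basement membrane sheets, rose 2.23-fold, Sparc, a collagen-binding protein, 1.92-fold and Dcn, decorin, 1.55-fold. Tnc, tenascin of injured tissue, passed with a control mean under the dim limit of 4.56, so no fold is given for it. Of the remodelling enzymes, Mmp12, the macrophage elastase, rose 5.05-fold from a control mean of 4.63 near the dim limit, and Mmp13, a collagenase, passed with a control mean under that limit. That list had 8 of 24 members higher, 5 without control 6, Western 3 or Western 5, 2 with the actin covariate and 13 with unscaled values. Tgfbr2, a receptor for the fibrogenic factor TGF-beta, read 7.77 to 8.49 in the control and 8.66 to 9.08 in the Western samples (1.77-fold; adjusted p = 0.000854), whereas the ligand gene Tgfb1 differed by 0.48 ± 0.17 and did not pass.

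Of 22 stellate cell and pericyte markers 8 rose, with collagen genes among them, against 2 with the actin covariate and 16 with unscaled values. In the covariate fit 10 were higher at an unadjusted p under 0.05 in limma. Pdgfrb, the receptor of activated stellate cells, rose 1.62-fold, Rgs5, a pericyte gene, 1.74-fold and Cygb, a globin of stellate cells, 1.46-fold. Acta2, the smooth muscle actin used to mark myofibroblasts, differed by 0.21 ± 0.15 (adjusted p = 0.434) and Reln, a secreted marker of stellate cells, by 0.21 ± 0.10, and neither passed. As a mean over the 22 markers relative to the control group, Western samples ran from 0.15 to 0.53 and control samples from −0.14 to 0.13.

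Markers of lipid-associated macrophages and of monocytes were higher, with fewer calls in the actin covariate fit. Of 18 genes of lipid-associated macrophages 12 rose, with a median of 0.50, and 4 with the actin covariate. In that covariate fit 12 were higher at an unadjusted p under 0.05 in limma. Gpnmb, a glycoprotein of lipid-laden macrophages, read 4.92, 4.15, 4.30, 4.60 and 4.68 in the control, around the dim limit, and 6.07 to 7.42 (median 7.14) in the Western samples. The groups did not overlap (adjusted p = 0.000157), and no fold is given since the control mean of 4.53 lay under that limit. Lgals3, galectin-3, read 6.96, 6.83, 6.85, 7.23 and 6.93 against 7.84 to 9.31. It rose 3.32-fold (adjusted p = 0.00114), and Western sample 2 was again the lowest. Trem2, the receptor used to define these cells, was at the dim limit in both groups (4.59 ± 0.31 and 4.61 ± 0.09, SD), the level under which genes were left out, and its adjusted p was 0.971. Cd9 differed by 0.45 ± 0.24 and did not pass.

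Of 19 markers of monocytes and recruited macrophages 17 rose, with a median of 0.75. The count was 11 without control 2 or control 6, 9 without Western 1 or Western 4, 10 without Western 5, and 1 with the actin covariate. In that last limma fit 17 of the 19 were higher at an unadjusted p under 0.05, with a list median of 0.615. Lyz2, a lysozyme whose probe sets may also read a close copy, rose 2.65-fold (8.53 to 8.99 against 9.55 to 10.65). Cx3cr1, a chemokine receptor, rose 1.60-fold, Fcgr1, an antibody receptor, 1.79-fold, Cd14, the endotoxin co-receptor, 2.07-fold and Cd52 1.93-fold. Ccr2, which brings monocytes out of the marrow, differed by 0.68 ± 0.23 and did not pass (adjusted p = 0.0773). Its ligand Ccl2, close to the dim limit, rose 2.08-fold, and Ccl6, another attractant of macrophages, rose 2.49-fold. Over 28 chemokine and receptor genes 6 rose and 1 fell, and 3 and 1 without control 6 or Western 1. The counts were 2 and 1 with the actin covariate and 15 and 1 with unscaled values.

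Resident Kupffer cells gave a mixed result, with 4 of 21 markers higher and 1 lower, and 2 and 1 without control 3, control 6, Western 1, Western 3 or Western 5. Cd5l, a secreted macrophage protein, read 10.03, 9.98, 9.98, 10.16 and 9.86 in the control and 10.58 to 11.31 in the Western samples. It was 2.01-fold higher without overlap. Cd163, the scavenger of haemoglobin, went the other way, with 7.49, 6.87, 7.50, 7.23 and 6.85 against 5.55 to 6.53. All Western samples were lower (2.22-fold; adjusted p = 0.00286). Clec4f (0.40 ± 0.16), Timd4 (−0.40 ± 0.22), Vsig4 (0.56 ± 0.20) and Marco (−0.83 ± 0.40) did not pass. Under the actin covariate no member passed in limma, and 5 had an unadjusted p under 0.05, of which 4 were higher. With unscaled values 13 rose and 1 fell.

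Lysosome genes rose in 13 of 39 cases with a median of 0.25. Psap, which activates sphingolipid hydrolases, rose 1.47-fold, Ctsd, a cathepsin, 1.42-fold, Lgmn, an asparaginyl protease, 1.96-fold and Gusb, a glucuronidase, 1.34-fold. Ctsb differed by 0.25 ± 0.08 and did not pass, though no Western sample fell into the control range. With the actin covariate 1 lysosome gene rose, while 12 were higher at an unadjusted p under 0.05 in that limma fit, and with unscaled values 23 rose. Of 11 genes of MHC class II presentation 5 rose, among them Cd74, the invariant chain, 1.78-fold. Without control 2, control 6 or Western 1 the count was 2, and without control 1, Western 4 or Western 5 it was 3. When the actin ratio entered the fit none of the 11 passed in limma, with 5 higher at an unadjusted p under 0.05, and with unscaled values 8 rose. Since macrophages are rich in lysosomes and in class II, these lists share members with the macrophage lists.

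Interferon-stimulated genes split, with 8 of 32 higher and 2 lower. Ifi27l2a rose 1.90-fold and Oasl2 1.88-fold, without overlap. Igtp and Irgm2, guanosine triphosphatases induced by interferon-gamma, were 1.40-fold and 1.34-fold lower with overlapping groups. On unscaled values 10 rose and none fell, and with the actin covariate 2 rose and none fell. Death-related genes rose in 5 of 23 cases, in 2 with the actin covariate and in 12 with unscaled values, Casp12, an endoplasmic reticulum caspase, by 1.77-fold and Phlda3, a p53 target, by 1.59-fold.

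Some lists showed no call, although with unscaled values 9 proteasome genes, 3 each of the class I and neutrophil genes, 2 unfolded protein genes and 1 of the T and NK cell genes rose. None of 13 genes of MHC class I presentation passed in limma, with 0 at an unadjusted p under 0.05. None of 23 genes that answer to unfolded proteins or to lack of amino acids passed, with 2 at an unadjusted p under 0.05 and Hspa5, the chaperone BiP, at −0.25 ± 0.27. None of 30 proteasome genes passed, with 3 such. Neutrophil markers (0 of 9, 2 at an unadjusted p under 0.05) and T and NK cell markers (0 of 11, 4 such) did not pass either, and S100a8, a neutrophil gene, differed by 0.71 ± 0.28. Of 10 adipocyte markers listed, 3 had no probe set and 2 were under the dim limit. Among the 5 tested 0 passed in limma, with 0 at an unadjusted p under 0.05. Fabp4 and Cidec, which adipocytes also express, rose, and the part of adipocytes in their rise was not tested.

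The largest fall of all genes that passed was that of Hsd3b5, a male-biased steroid enzyme of liver. It read 8.97, 9.83, 10.68, 9.90 and 11.05 in the control samples and 5.46, 8.75, 6.15, 6.11, 7.02 and 9.49 in Western samples 1 to 6. Western sample 6 lay within the control range, and the difference was −2.92 ± 0.74 (7.56-fold lower; adjusted p = 0.0206). The call was lost without control 6, Western 1 or Western 4, with adjusted p up to 0.0579, and with the actin covariate it was 0.196. In the list of growth hormone and sex-biased genes 2 of 23 fell, Hsd3b5 and Hao2, a hydroxy acid oxidase, the latter by 1.17 ± 0.28 with overlap and with Western samples at 4.63 to 5.30, near the dim limit. The list had 5 higher and 2 lower members on unscaled values, 1 lower without Western 1 or Western 4, 4 lower without Western 6, and 1 higher and 4 lower without control 1. When the actin ratio entered the fit none passed in limma, and 3 higher and 4 lower had an unadjusted p under 0.05. Clec2h, a C-type lectin gene, was 3.09-fold lower without overlap (6.70 to 7.35 against 4.58 to 6.52; adjusted p = 0.00155). Cyp2c54, a cytochrome of a family of close copies, read 10.57 to 11.31 in the control and 8.41 to 10.70 in the Western samples. It was 2.41-fold lower at an adjusted p of 0.0458, which was above 0.05 on leaving out any of 9 samples, Western 2 and Western 6 excepted.

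Conjugating and other enzymes also held large decreases. Nnmt, which methylates nicotinamide, read 9.74, 9.79, 9.88, 9.42 and 10.12 in the control and at most 8.85 (median 8.58) in the Western samples. It was 2.39-fold lower without overlap. Sult1a1, a sulfotransferase, was 1.49-fold lower. In that list of 19, 4 fell and 1 rose, with 2 lower and 3 higher on unscaled values and 1 higher with the actin covariate. Slco2a1, a prostaglandin transporter, read 7.37, 7.60, 7.77, 7.60 and 7.73 against 6.27 to 6.69 (median 6.64). The difference was −1.03 ± 0.09 (adjusted p = 4.86e-06), and 4 of 4 probe sets agreed. Enho, the gene of the peptide adropin, was 2.41-fold lower, and Cela1, an elastase, 2.48-fold lower. Cela1 was the member that changed among 4 tested markers of exocrine pancreas, of which 5 more were under the dim limit.

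Genes outside the groups above were among those with the smallest adjusted p-values or the largest folds. Gnai1, a subunit of inhibitory G proteins, read 6.00, 6.08, 6.47, 6.08 and 6.73 in the control and 7.73 to 8.13 (median 7.90) in the Western samples. The gap between the groups was wide, a 3.09-fold rise (adjusted p = 2.13e-06). Osbpl3, an oxysterol-binding protein, rose 3.73-fold (5.95 to 7.46 against 8.17 to 8.80; adjusted p = 4.20e-05). Adgrv1, an adhesion G protein-coupled receptor, rose 3.93-fold (6.24 to 6.85 against 7.89 to 9.12; adjusted p = 4.20e-05). Ly6d, a lipid-anchored surface protein, rose 9.55-fold, with Western samples from 7.83 to 10.15, the highest being Western sample 1.

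The Western mice differed among themselves along several lists together. As a mean over the monocyte markers relative to the control group, Western samples ran from 0.38 to 1.10 with a median of 0.86, and control samples from −0.17 to 0.09. The lipid-associated macrophage markers ran from 0.45 to 1.09. Western sample 1 was the highest and sample 2 the lowest in both of these lists, and also in the collagen, cytoskeleton and lysosome lists. The lipid droplet list, from 0.56 to 0.86, had Western sample 5 at the top, and the amino acid list ran only from −0.43 to −0.27. Western sample 2 overlapped the control range in the Kupffer list.

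**Figure D5:**
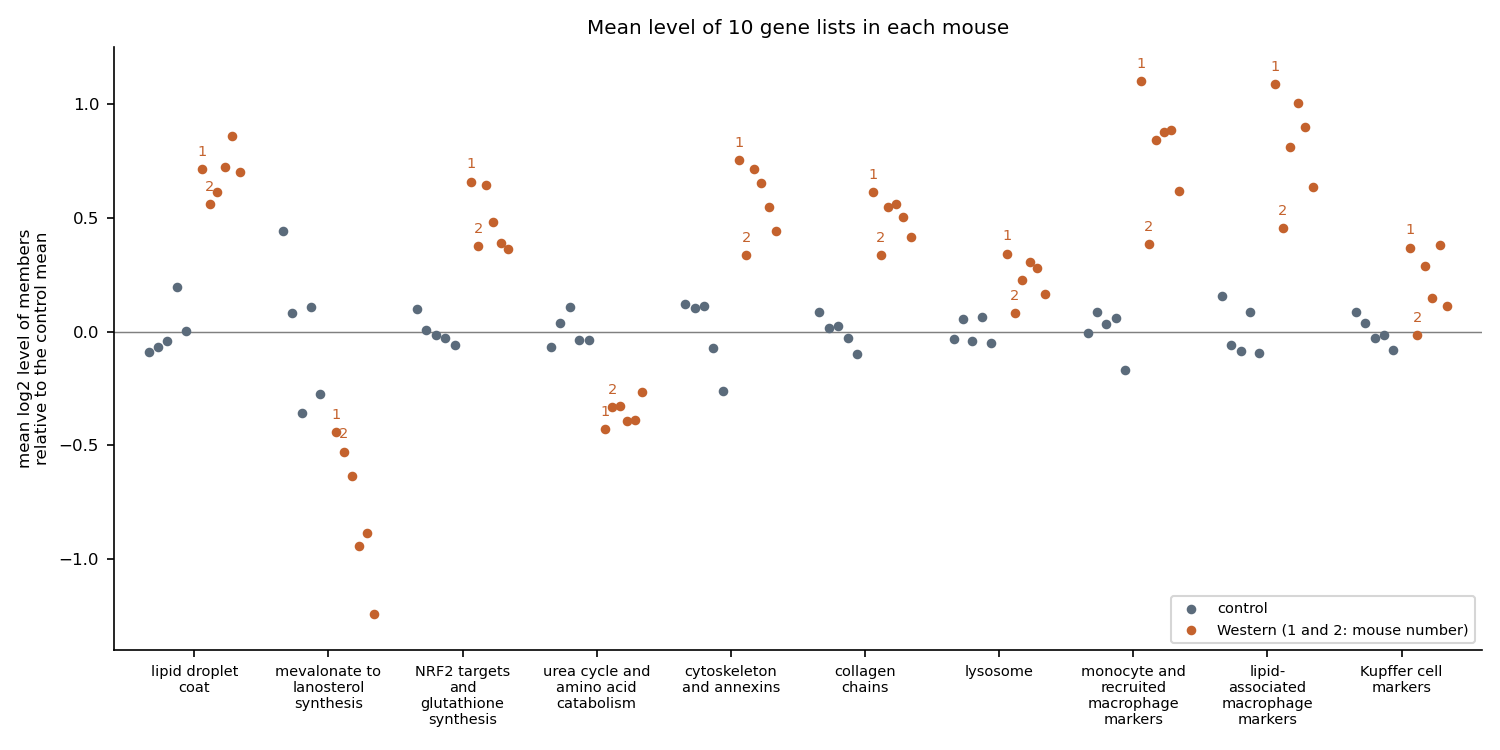
Mean log2 level of the tested members of 10 gene lists in each mouse, relative to the control mean, with control samples in blue-grey and Western samples in orange and Western samples 1 and 2 numbered. In 9 of the 10 lists every Western sample lies outside the control range, and in the Kupffer list Western sample 2, at −0.02, lies within it.

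Beside the Western group, the mice given quercetin in the same diet had values in the same range for the genes at the centre of this comparison. Cidea read 9.86 as their mean against 10.18 in the Western group, Idi1 7.97 against 7.97, Agxt 9.63 against 9.41, Col3a1 9.33 against 9.69 and Lgals3 8.51 against 8.69. These groups share the control samples with the comparison above, and no test of quercetin is given here.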

How the data were processed

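Values came from the table of signal intensities that the authors deposited for 45101 probe sets on Affymetrix mouse arrays, a linear scale from 0.011838 to 12323.2. How these intensities were made from the scans is not given in the sources used here. Every value column matched a sample, 0 were left unmapped, and groups were read from the sample titles. Each array was taken as 1 mouse, control 4 and 5 were counted once because they may hold the same mouse or library, cages are not tied to mice in the labels, and the precision is limited by the number of arrays.

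Of 45037 probe sets left after 64 control probe sets were set aside, 34945 had 1 gene symbol in the platform annotation, 932 had several and 9160 had none; only the first kind was named. Values were turned to log2(value + 16) and quantile normalized over all 18 arrays. Each gene was read from its brightest probe set, and 4548 of 18193 genes, those under the 25th percentile (4.56), were left out. limma 3.58.1 in R 4.3.3 fitted 1 mean per group over 17 samples of 3 groups, and p-values were adjusted by Benjamini-Hochberg over the genes tested. The code was tested on simulated data. Figures were drawn with matplotlib 3.10.9.

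The comparison, its lists and the named genes were chosen with earlier results of these data known. Named genes come from a rule that gave 400 genes, namely the 15 with the largest rise and the 15 with the largest fall among those that passed with all 6 Western mice on that side of the control mean, the 10 with the smallest adjusted p, marked members of each list whatever their result, up to 6 further members of each list by smallest p, and the sterol and NRF2 genes that passed. All 37 genes of the first 3 kinds are described. Of the list members the text gives a part, chosen with their values known, so 198 of the 400 are named. Promoter windows of 250 bases came from RefSeq on GRCm38.p6, with symbols matched to the entries there. Alternatives were other scalings, pseudocounts, dim filters and rules for probe sets, only the 2 diet groups in the fit, control 4 and 5 kept apart, replicate numbers as a block, each set of 3 numbers alone, the actin ratio as a covariate, and each sample left out in turn.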

Additional observations from a re-analysis of the deposited data

Results flagged for a closer look

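In 416 groups of 5 or 6 samples, 1 group for each diet of each gene named above and of the 10 list levels, the most extreme sample was compared with its nearest neighbour by Dixon's ratio. It stood apart in 22 of them (5.29%), and chance alone gives about 1 in 20. Control 6 and Western 2 supplied 5 each. Levels are log2(signal + 16).

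Control 6 was the sample apart, lower than the other controls, for Apoc2 at 11.52, Gstm3 at 7.98, Gstm1 at 11.85 and Vim at 7.10, and higher for Pemt at 10.38. Western 2 was lower than the other Western samples for Gsta2 at 9.38, Steap4 at 9.44, Gpnmb at 6.07, Ifi27l2a at 7.22 and Oasl2 at 6.39. Western 3 was higher for Orm2 at 10.95 and Hp at 12.72, both acute phase genes, and lower for Sult1a1 at 10.23. Western 1 was lower for Dgat2 at 10.89 and Ass1 at 6.92. Western 5 was lower for Nr0b2 at 7.86 and Slco2a1 at 6.27, and Western 6 was higher for Klkb1 at 10.05. Among the controls, sample 3 was higher for Cidea at 6.26 and Ass1 at 8.62, and sample 1 was higher for Mogat1 at 6.71 and Orm2 at 9.14.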

How the results depend on the processing

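The count of 1178 changed genes, 747 higher and 431 lower, was 3718, 3634 and 84 with the values as deposited. With array medians centred it was 1278, and 176 of these were lower. Within numbers 1 to 3 alone 88 genes changed (53 higher, 35 lower), within numbers 4 to 6 alone 297 (190 and 107), and with the actin covariate 225 (148 and 77). Leaving out 1 sample gave 743 to 1394 changed, 488 to 906 higher and 254 to 488 lower genes. The other alternatives, namely pseudocounts of 1 and 64, no dim filter or a 50th percentile one, other rules for probe sets, only the 2 groups, control 4 and 5 as 2 samples and the replicate blocks, gave 1051 to 1522. Same-numbered samples of the 2 groups had deviations from their group means that correlated over genes at −0.06 to 0.26 (median 0.23, against −0.03 for other numbers), and since pair 2 was below 0 the numbers were not taken as pairs. The replicate number as a block gave 1425 genes, and numbers 1 to 3 and 4 to 6 as a block of 2 sets gave 1522.

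Genes that had not passed and changed sign were Alb (0.013 as deposited, 0.020 within 1 to 3, −0.063 to 0.0030 on leaving out a sample), Pnpla2 (−0.11 within 4 to 6), Ppara (−0.20 within 4 to 6, −0.022 to 0.32 on leaving out a sample), Srebf2 (0.038 as deposited), Insig1 (0.031 as deposited), Fasn (−0.0047 with the actin covariate), Scd1 (−0.011 with medians centred), Cyp7a1 (−0.42 within 4 to 6), Gclc (−0.12 with the actin covariate, −0.021 to 0.18 on leaving out a sample), Gclm (−0.021 within 4 to 6, −0.045 with the actin covariate), Cyp2f2 (0.078 as deposited), Actb (−0.16 as the mean of its probe sets, −0.037 with the actin covariate) and Trem2 (−0.075 with medians centred, −0.0020 with a pseudocount of 64, −0.13 within 1 to 3, and −0.071 to 0.14 on leaving out a sample). The cause was not tested. Dim genes and genes near the top of the scale, such as Scd1 and Alb, have compressed differences.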
